A study of Mus musculus with 24 samples.

Results

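The 10 genes described here are effector and receptor genes of cytotoxic lymphocytes, picked by name out of the 53465 genes of the deposited table. They are Cd8a and Cd8b1 (the chains of the CD8 co-receptor), Prf1, Gzma, Gzmb, Gzmk and Nkg7 (cytotoxic granules), Ifng (the cytokine interferon gamma), and Klrk1 and Tnfrsf9 (the activating receptors NKG2D and 4-1BB). All 10 were found by symbol. RNA was sequenced from 24 bulk tumors, 3 from each of 8 BURP tumor lines, which are transplantable mouse bladder tumors. Each line began as a bladder tumor of 1 C57BL/6NTac mouse that drank 0.1% BBN, a nitrosamine bladder carcinogen, from an age of 8 weeks for at most 36 weeks, and it was then passed under the skin of sex-matched C57BL/6NTac hosts with an intact immune system. The basal/squamous (Ba/Sq) lines from males were BURP-12BaSq, BURP-17BaSq and BURP-18BaSq, and those from females were BURP-21BaSq, BURP-24BaSq and BURP-25BaSq. BURP-16SR, a male stroma-rich (SR) line with sarcomatoid morphology, and BURP-19NE, a male neuroendocrine-like (NE) line, were the only lines of their kind. Tumors are named here by their line and the last part of their label. Whether the sequenced tumors had been treated, and the age of their hosts, are not given in the sources used here. Since every line goes back to a single mouse, p-values measure the spread between tumors and not between independent cancers.

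The labels were checked on epithelial genes and on the whole profiles. Levels are given as CPM, the counts of a gene per 1000000 counts of a library, with library sizes normalised by TMM. Krt5, a keratin of basal urothelium, stood at 2950 to 6053 CPM in the 18 Ba/Sq tumors, at 0 to 0.339 in BURP-16SR and at 0 to 0.0421 in BURP-19NE. Epcam, an epithelial adhesion molecule, stood at 21.4 to 192 CPM in the Ba/Sq tumors, at 0.232 to 0.593 in BURP-16SR and at 0 in BURP-19NE. Tumor C102-M1 of BURP-25BaSq was nearer in its profile to BURP-21BaSq (Pearson r = 0.980 of log2 CPM over 21383 genes) than to its own line (0.910), and tumor P4 of BURP-18BaSq was about as near to BURP-17BaSq (0.930) as to its own line (0.927). In tumor C102-M30 of BURP-25BaSq 1 gene, CT010467.1, took 61.9% of all counts. Libraries held 9295708 to 25370320 counts in all, and 3 counts, taken as the floor of detection, were worth 0.106 to 1.34 CPM, the highest value being that of C102-M30.

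Cytotoxic T cells and natural killer (NK) cells kill a target by releasing granules toward it. Perforin, the product of Prf1, makes pores in the target membrane, and granzymes, which are serine proteases, then enter and start cell death. CD8 helps the T cell receptor to read peptides on MHC class I, NKG2D reads stress ligands of tumor cells, and 4-1BB is a costimulatory receptor that T cells and NK cells gain on activation and that regulatory T cells also carry. Interferon gamma acts on tumor and host cells, where it induces chemokines and antigen presentation. In bulk tumors, fewer cells of a type and less RNA per cell cannot be told apart.

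The DNA in front of the granule genes and of Tnfrsf9 is shown because Gzma, Prf1 and Tnfrsf9 are the genes that passed a test further on, and Gzmb or Nkg7 was in each case the gene of the 10 closest to them by correlation over the 24 tumors. Windows were taken from RefSeq (build GRCm38.p6) for 9 of the 10 genes, Tnfrsf9 having 2 starts and Cd8b1 none in the table used. They were searched on both strands for the core motif of RUNX factors (TGTGGT), a T-box motif (GTGTGA) and the AP-1 motif (TGANTCA), which do not overlap each other in the windows shown. Each sequence is the 200 bases before the start, 5′ to 3′ on the strand of the gene, and capitals mark the motifs found. Gzma is at chr13:113100982-113101181 (minus strand), Gzmb at chr14:56262335-56262534 (minus), Prf1 at chr10:61297636-61297835 (plus), Nkg7 at chr7:43436938-43437137 (plus) and the second start of Tnfrsf9 at chr4:150927799-150927998 (plus).
Gzma: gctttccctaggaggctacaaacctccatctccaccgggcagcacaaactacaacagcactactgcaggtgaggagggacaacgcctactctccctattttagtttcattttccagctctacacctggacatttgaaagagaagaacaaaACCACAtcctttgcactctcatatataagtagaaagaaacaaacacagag
Gzmb: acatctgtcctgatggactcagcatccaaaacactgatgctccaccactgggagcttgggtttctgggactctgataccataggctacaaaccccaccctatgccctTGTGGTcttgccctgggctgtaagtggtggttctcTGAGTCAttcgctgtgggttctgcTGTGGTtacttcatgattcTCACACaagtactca
Prf1: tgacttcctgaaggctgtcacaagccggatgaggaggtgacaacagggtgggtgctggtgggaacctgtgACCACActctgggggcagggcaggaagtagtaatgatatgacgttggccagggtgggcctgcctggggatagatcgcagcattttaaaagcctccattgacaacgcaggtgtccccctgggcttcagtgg
Nkg7: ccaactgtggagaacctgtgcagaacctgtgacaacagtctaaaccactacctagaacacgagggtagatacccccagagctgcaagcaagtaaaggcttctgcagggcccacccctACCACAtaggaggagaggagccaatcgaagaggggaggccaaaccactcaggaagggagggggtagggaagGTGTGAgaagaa
Tnfrsf9, second start: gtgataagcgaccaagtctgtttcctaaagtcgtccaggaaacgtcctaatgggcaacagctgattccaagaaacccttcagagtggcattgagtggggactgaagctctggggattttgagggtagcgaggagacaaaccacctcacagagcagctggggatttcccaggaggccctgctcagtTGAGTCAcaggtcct
The Gzmb window held 2 RUNX cores (at -93 and -34 from the start), an AP-1 motif (-58) and a T-box motif (-15). Gzma had 1 RUNX core (-50), Prf1 had 1 (-130), and Nkg7 had a RUNX core (-83) and a T-box motif (-12). Of those not shown, Klrk1 had a RUNX core (-129), Gzmk had 2 T-box motifs (-74 and -49), and the windows of Cd8a, Ifng and the first start of Tnfrsf9 held none of the 3. Of 32851 promoters searched over the 250 bases before the start, 14.0% held the RUNX core, 12.3% the T-box motif and 6.75% the AP-1 motif, so that these letters are common, and no binding was measured.

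Most of the 10 genes were low in bulk tumor RNA, with few counts per tumor. Summed over the 24 tumors, Tnfrsf9 had 3412 counts, Cd8a 1874, Klrk1 1049, Prf1 878, Nkg7 713, Gzmb 518, Cd8b1 431, Gzma 361, Ifng 195 and Gzmk 80. Tnfrsf9 was the only one with 10 or more counts in all 24 tumors, whereas Gzmk reached 10 counts in 1 tumor and Ifng in 7. Per kilobase of exon, the scale on which genes can be set side by side, the median levels were highest for Tnfrsf9 (2.22 CPM per kb), Nkg7 (1.38) and Cd8a (1.01). Gzmb (0.522), Gzma (0.505), Prf1 (0.494) and Cd8b1 (0.454) lay close together, and Ifng (0.234), Klrk1 (0.227) and Gzmk (0.0753) were lowest.

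**Figure D1:**
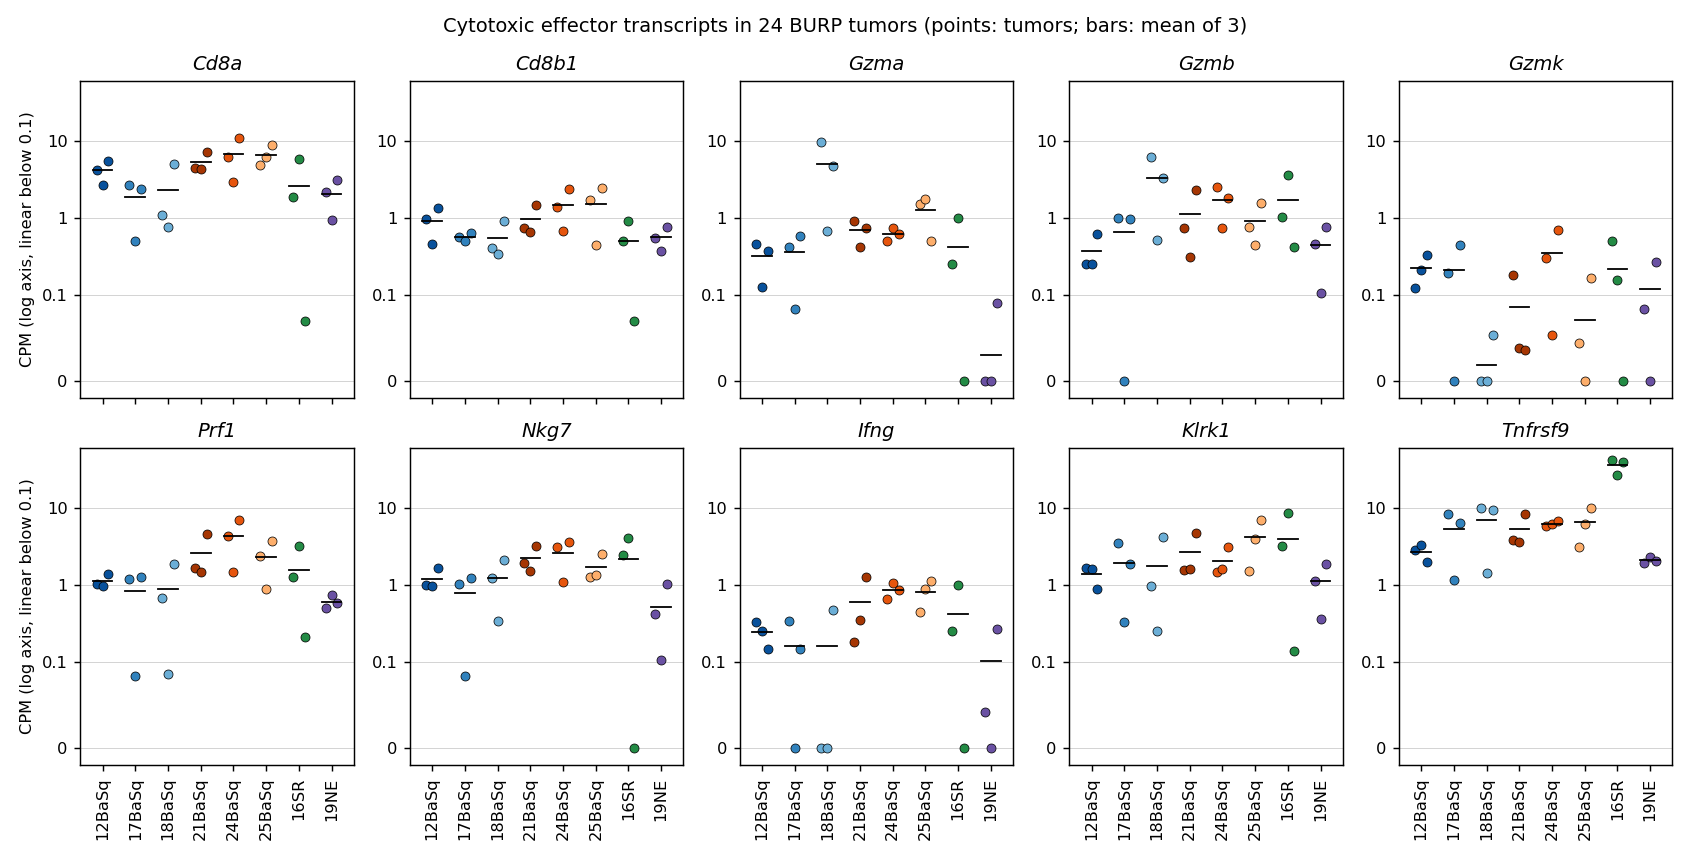
Levels of the 10 genes in the 24 tumors, 1 panel per gene, with the 8 BURP lines on the horizontal axis and CPM on a symmetric log vertical axis; points are tumors and bars are means of 3. Tumors of a line are spread widely for most genes, and Tnfrsf9 in BURP-16SR (26.9 to 41.5 CPM) is the one case in which a line lies above all other tumors.

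The CD8 genes were highest in the female Ba/Sq lines. Cd8a had line means ± SD (n = 3) of 6.69 ± 4.09 CPM in BURP-24BaSq, 6.66 ± 1.95 in BURP-25BaSq and 5.33 ± 1.55 in BURP-21BaSq. It had 4.15 ± 1.38 CPM in BURP-12BaSq, 2.61 ± 2.98 in BURP-16SR, 2.30 ± 2.37 in BURP-18BaSq, 2.08 ± 1.09 in BURP-19NE and 1.88 ± 1.20 in BURP-17BaSq. The tumors of neighbouring lines overlapped at all 7 steps of this order. Single tumors ran from 11.0 CPM (267 counts, BURP-24BaSq P2) to 0.0699 CPM, which was 1 count in BURP-16SR P5. Cd8b1, its partner chain, was led by the same 3 lines, at 1.53 ± 1.0 CPM in BURP-25BaSq, 1.47 ± 0.838 in BURP-24BaSq and 0.960 ± 0.458 in BURP-21BaSq, and was lowest in BURP-16SR at 0.502 ± 0.429.

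Prf1 had the same leaders as Cd8a. In BURP-24BaSq the 3 tumors had 4.33, 1.48 and 7.07 CPM (85, 28 and 171 counts), in BURP-21BaSq 1.65, 1.47 and 4.67 (18, 38 and 132) and in BURP-25BaSq 2.40, 0.895 and 3.71 (54, 2 and 66). The male Ba/Sq lines gave 1.04, 0.977 and 1.41 CPM in BURP-12BaSq, 1.19, 0.084 and 1.28 in BURP-17BaSq, and 0.687, 0.0858 and 1.87 in BURP-18BaSq. No male Ba/Sq tumor passed 1.87 CPM, and 5 of the 9 female ones did. BURP-16SR had 1.27, 3.25 and 0.210 CPM, and BURP-19NE had 0.505, 0.738 and 0.590.

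Nkg7, a granule membrane protein of killer cells, was likewise highest on average in BURP-24BaSq (2.62 ± 1.33 CPM) and lowest in BURP-19NE (0.523 ± 0.478). The highest single tumor, however, was BURP-16SR C74-MNT at 4.10 CPM (53 counts), while P5 of the same line had 0 counts, a level below 0.210 CPM at its floor of 3 counts. Klrk1 showed the same spread inside BURP-16SR, with 3.22, 8.59 and 0.140 CPM (38, 111 and 2 counts). Outside that line its highest levels were 7.09 CPM in BURP-25BaSq C102-M1, 4.78 in BURP-21BaSq P5 and 4.17 in BURP-18BaSq P4.

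Of the 3 granzymes, Gzma and Gzmb had their highest line means in BURP-18BaSq and Gzmk was barely counted. Gzma in BURP-18BaSq stood at 9.75, 0.686 and 4.70 CPM (71, 8 and 88 counts). It stood at 0.459, 0.127 and 0.370 CPM in BURP-12BaSq, 0.422, 0.084 and 0.592 in BURP-17BaSq, and 0.254, 1.01 and 0 in BURP-16SR. The female lines gave 0.918, 0.425 and 0.744 CPM in BURP-21BaSq, 0.510, 0.742 and 0.620 in BURP-24BaSq, and 1.51, 1.79 and 0.506 in BURP-25BaSq. BURP-19NE had 0, 0 and 2 counts. In the order of lines, BURP-12BaSq and BURP-19NE at the low end did not overlap for Gzma, while the other 6 neighbouring pairs did. Gzmb had its highest line mean in BURP-18BaSq too, at 6.18, 0.515 and 3.31 CPM (45, 6 and 62 counts). Of the other tumors, BURP-16SR C74-MNT (3.64 CPM), BURP-24BaSq C81-M1 (2.55) and BURP-21BaSq P5 (2.30) were highest. Its lowest line mean was that of BURP-12BaSq, 0.378 ± 0.217 CPM. Gzmk, a granzyme of memory T cells, had at most 17 counts in any tumor (BURP-24BaSq P2, 0.703 CPM) and 0 in 6 tumors, among them C148-M3 and C149-M3 of BURP-18BaSq.

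Ifng followed the CD8 genes at lower counts. Its line means were 0.864 ± 0.199 CPM in BURP-24BaSq, 0.822 ± 0.346 in BURP-25BaSq and 0.602 ± 0.588 in BURP-21BaSq, and 0.105 ± 0.147 in BURP-19NE. The highest tumor was BURP-21BaSq P5 with 36 counts (1.27 CPM), and 5 tumors had none. At 0 to 36 counts per tumor, depth limits what single tumors show for this gene.

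Tnfrsf9 stood apart from the other 9. In BURP-16SR the 3 tumors had 41.5, 26.9 and 40.2 CPM (490, 348 and 575 counts). No other tumor passed 10.1 CPM. BURP-18BaSq had 9.89, 1.46 and 9.57 CPM, BURP-25BaSq 3.16, 6.27 and 10.1, BURP-24BaSq 5.81, 6.25 and 6.74, and BURP-21BaSq 3.86, 3.60 and 8.50. BURP-17BaSq had 8.32, 1.18 and 6.41 CPM, BURP-12BaSq 2.83, 3.27 and 2.0, and BURP-19NE 1.94, 2.32 and 2.09. BURP-16SR and BURP-18BaSq, the leading pair, did not overlap, and the other 6 neighbouring pairs did.

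Differences among lines were asked of all genes in 1 edgeR quasi-likelihood fit per comparison, with Benjamini-Hochberg adjustment over every gene tested. Gzmk was too low to pass the filter in any of the comparisons and has no test. Among the 8 lines, Gzma (F = 7.87, adjusted p = 0.000504) and Tnfrsf9 (F = 10.8, adjusted p = 9.44e-05) differed, 2 of the 9 genes tested. The background was far higher, since 76.7% of the 21383 genes tested passed. The other 7 had adjusted p from 0.0693 (Prf1) to 0.562 (Klrk1). Without BURP-16SR the call of Tnfrsf9 ended (F = 1.92, adjusted p = 0.161), and Prf1 was called beside Gzma (adjusted p = 0.0320), where 15103 of 20995 genes passed. Among the 6 Ba/Sq lines alone, Gzma (F = 8.93, adjusted p = 0.00297) was the 1 gene of 9 that passed, against 50.5% of the 20523 genes tested. It rested on BURP-18BaSq, since without that line F was 2.65 and adjusted p was 0.136, while without tumor P4 of that line, the one near BURP-17BaSq, F was 6.76 (adjusted p = 0.00838). Without P4, Cd8a (adjusted p = 0.0163), Ifng (0.0265) and Prf1 (0.0435) were called as well, 4 of 9, where 10984 of 21224 genes passed.

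In BURP-18BaSq, Gzma was out of step with perforin. The line's 3 tumors held 167 of the 343 Gzma counts of the 18 Ba/Sq tumors but 41 of their 779 Prf1 counts. Per kilobase of exon, Gzma was 10.5 times Prf1 in BURP-18BaSq, over the 3 tumors summed. The same ratio was 1.06 in BURP-17BaSq, 0.990 in BURP-25BaSq, 0.717 in BURP-12BaSq, 0.685 in BURP-16SR, 0.574 in BURP-21BaSq, 0.353 in BURP-24BaSq and 0.132 in BURP-19NE. In counts, C148-M3 had 71 of Gzma and 5 of Prf1, C149-M3 had 8 and 1, and P4 had 88 and 35, so that all 3 tumors had more Gzma than Prf1, which no other tumor did apart from C102-M30 with 4 and 2 counts. Among markers of NK cells and T cells, C148-M3 had 0 counts of Ncr1 (the NK receptor NKp46), 1 of Klrb1c (NK1.1) and 15 of Cd3e, a chain of the T cell receptor complex. P4 had 17, 22 and 68. These ratios were picked out after the values were seen and were not tested.

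**Figure D2:**
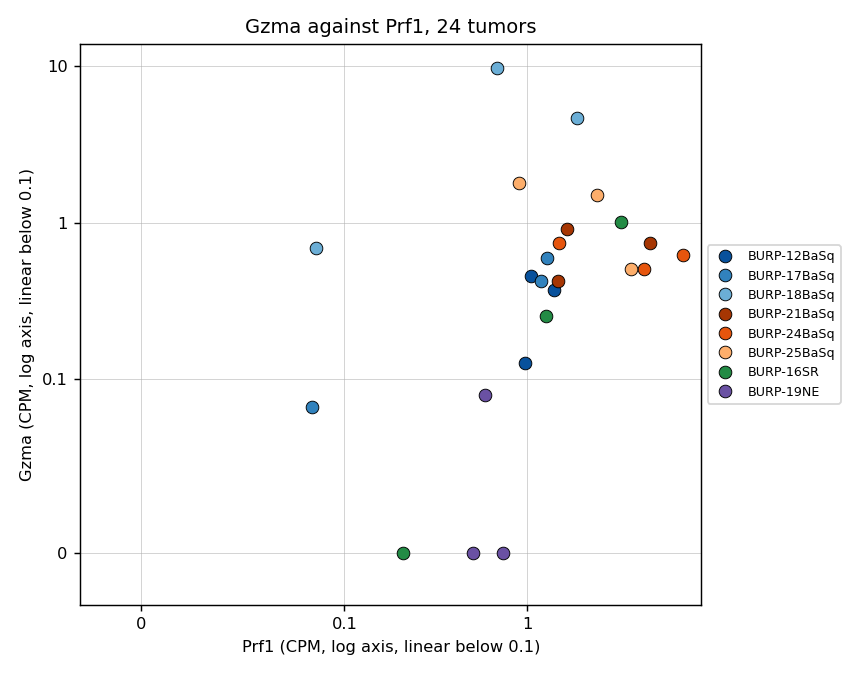
Gzma (vertical axis) against Prf1 (horizontal axis) in the 24 tumors, both in CPM on log axes that turn linear below 0.1, with the lines told apart by colour. The 3 BURP-18BaSq tumors lie above the others at their level of Prf1, with 9.75, 0.686 and 4.70 CPM of Gzma.

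The NE line was compared with the Ba/Sq lines to see how killer cell transcripts differ between the subtypes. All 9 genes tested were lower in BURP-19NE, with a median log2 fold change of -1.55, beside -0.14 over all genes tested. Gzma alone passed (log2 fold change -5.16, SE 1.60, adjusted p = 0.0167), 1 of 9 lower and none higher, where 15.0% of 20995 genes were called lower and 9.33% higher. BURP-19NE had 2 Gzma counts over 3 tumors against 343 over 18, a pooled ratio of 0.0307 (95% exact interval 0.00370 to 0.112, counting error only). The next largest differences were Ifng (-2.08, SE 1.10, adjusted p = 0.151), Prf1 (-1.73, SE 0.88, 0.135) and Nkg7 (-1.61, SE 0.73, 0.0933). Tnfrsf9 (-1.37), Gzmb (-1.55), Cd8a (-1.09), Klrk1 (-1.01) and Cd8b1 (-0.83) had adjusted p of 0.0699 to 0.301. The Gzma call ended without tumor C80-M1 (adjusted p = 0.0805), without C80-M3 (0.0786) and with counts summed per line (0.203). Without BURP-18BaSq it stood at -4.06 (adjusted p = 0.00259). BURP-19NE is a male line and 9 of the 18 Ba/Sq tumors were from female lines, so sex was not matched. Mean Prf1 was 0.611 CPM in BURP-19NE, 0.958 in male and 3.08 in female Ba/Sq tumors. In that order Cd8a stood at 2.08, 2.78 and 6.23 and Ifng at 0.105, 0.190 and 0.762. Gzma (0.0303, 1.91 and 0.863) and Gzmb (0.447, 1.46 and 1.25) were higher in male than in female Ba/Sq tumors. A fit against the male tumors alone was not made.

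Of 14 T cell genes, 2 fell in BURP-19NE, a share near the 15.0% of all genes, and all 14 had values below 0 (median -1.23). Cd5 fell by 2.74 and Trbc2, a constant region of the T cell receptor, by 2.53 on the log2 scale. The summed level of the 14 genes was 3.85 to 14.6 CPM in BURP-19NE and 3.36 to 41.4 in the Ba/Sq tumors. Counted per T cell gene count rather than as CPM, the mean level of BURP-19NE differed from that of the Ba/Sq tumors by -5.13 for Gzma, -1.34 for Ifng, -0.63 for Nkg7 and -0.60 for Gzmb on the log2 scale. On that scale Cd8b1 and Gzmk differed by 0.35 each, Prf1 by 0.23, Tnfrsf9 by 0.21, Cd8a by 0.16 and Klrk1 by 0.15. These values rest in part on C80-M3, which had 73 T cell counts in all, and without it Prf1 stood at -0.84, Tnfrsf9 at -0.71, Ifng at -0.76 and Gzma at -4.55. Of 13 genes tested that act with the effectors, Prdm1 (-2.31) and Runx3 (-1.96), transcription factors of cytotoxic T cells, fell, which again is near the share of all genes. Rab27a (-2.93) and Ctsc (-1.72), which dock granules and activate granzymes, fell among 8 granule genes, though tumor cells also use both. The 8 genes were split, with 4 above 0 and 4 below (median -0.59).

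Genes downstream of Ifng were lower too in BURP-19NE, again with sex unmatched between this male line and the Ba/Sq tumors. Of 20 interferon gamma response genes 8 fell and 1 rose, beside the 15.0% and 9.33% of all genes, with a median of -1.47. The chemokine gene Cxcl11 (-4.14), the immunoproteasome subunit Psmb9 (-2.04) and Ciita (-1.98), the master factor of MHC class II, fell most, and Ido1, an enzyme of tryptophan breakdown, rose by 2.64. Ifngr2 (-1.23), a chain of the interferon gamma receptor, fell as well. Of the ligands of NKG2D, H60c fell from 8 to 1560 counts in the Ba/Sq tumors to 0 in all 3 BURP-19NE tumors, while Raet1d rose by 3.46 and Ulbp1 by 1.49. With counts summed per line, all calls of list genes named here for BURP-19NE were lost except that of H60c. With 1 tumor left out, the calls of Cd5, Runx3, Rab27a and Ciita were lost without any 1 BURP-19NE tumor, those of Trbc2 and Psmb9 without C80-M1 or C80-M3, that of Prdm1 without C80-M3 or C80-M30, and that of Cxcl11 in 7 of 21 fits. Members of the Raet1 and H60 families are close copies, and their estimated counts can be shared between them. Markers of other cells moved in the same tumors. Of 5 neutrophil genes 4 fell (median -3.89), with a summed level of 1.79 to 2.95 CPM in BURP-19NE and 1.74 to 98.2 in the Ba/Sq tumors. Of 7 mast cell genes 4 rose and 1 fell (median 2.44), with sums of 26.8, 3.22 and 36.1 CPM against 2.83 to 35.3. The muscle genes Ckm, Acta1 and Myh4 rose, Acta1 with 4026 counts in C80-M1. Their part in the differences of the 9 genes was not tested. Klra4, an NK receptor gene of the Ly49 family, had 897, 1213 and 1232 counts in BURP-19NE (log2 fold change 5.91, adjusted p = 3.27e-05), with 1, 0 and 4 counts of Ncr1 in the same tumors. Klra4 was the 1 gene called of 5 NK cell genes tested, of which 3 were below 0 (median -0.88).

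**Figure D3:**
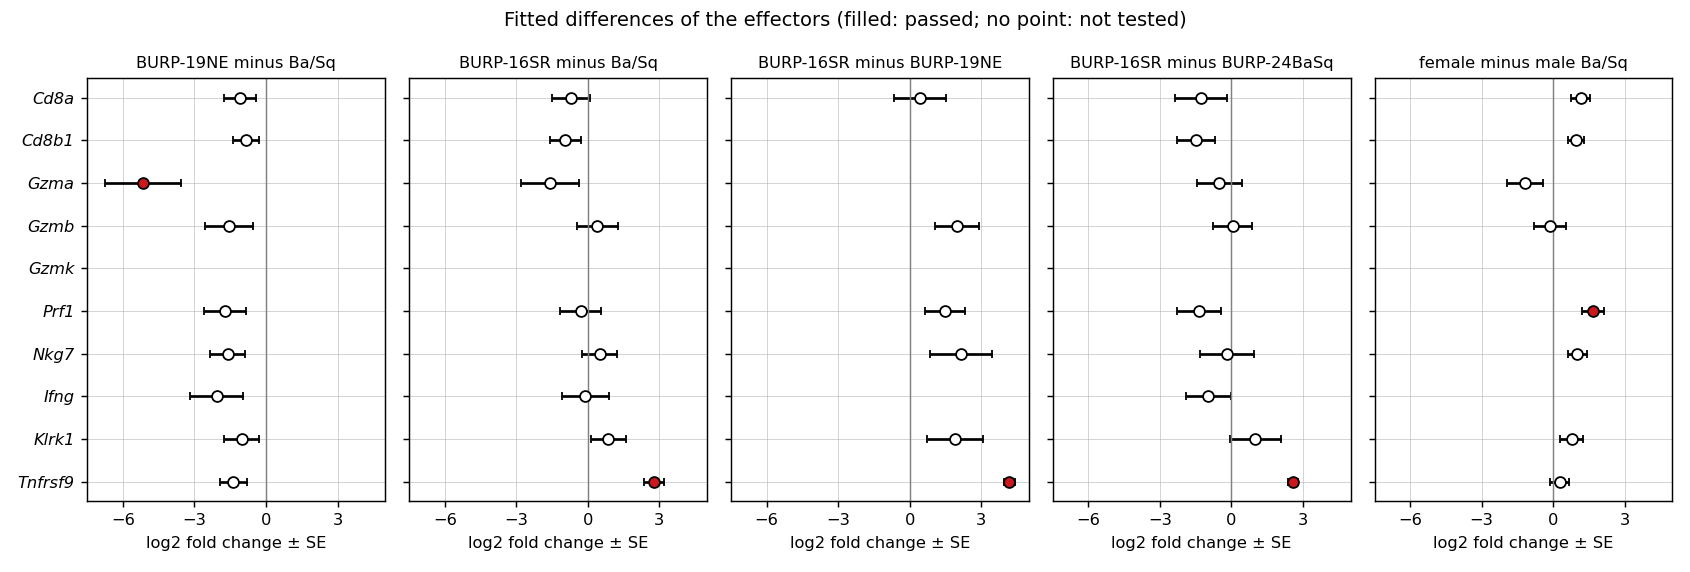
Log2 fold changes with SE (horizontal axis) of the genes tested in the 5 comparisons between groups, where filled points passed adjusted p under 0.05 with a change of more than 1. Tnfrsf9 passed in each of the 3 comparisons of BURP-16SR, Gzma (-5.16) in the NE comparison and Prf1 (1.67) between the sexes.

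The SR line was compared with the Ba/Sq lines in the same way. Tnfrsf9 rose (log2 fold change 2.78, SE 0.41, adjusted p = 3.82e-05) and was the 1 gene of 9 that passed, where 10.5% of 21028 genes were called higher and 8.62% lower. The remaining 8 lay between -1.57 (Gzma) and 0.86 (Klrk1), with adjusted p of 0.307 or more, and the median of the 9 was -0.10. Against BURP-19NE, Tnfrsf9 was higher by 4.19 (SE 0.24, adjusted p = 0.000430), 1 of 6 tested, where 14.8% of 17556 genes were called higher and 8.86% lower. BURP-16SR and BURP-24BaSq were the lines used for cisplatin experiments. Against BURP-24BaSq, Tnfrsf9 was higher by 2.58 (SE 0.22, adjusted p = 0.000318), 1 of 9, with 15.8% of 18283 genes called higher and 13.2% lower. These 3 comparisons share the BURP-16SR tumors. BURP-16SR is a male line and BURP-24BaSq a female one, so sex was matched only in the comparison with BURP-19NE. Mean Tnfrsf9 was 36.2 CPM in BURP-16SR, 4.99 in male and 6.03 in female Ba/Sq tumors. The call of Tnfrsf9 held without any 1 tumor in each of them, and with counts summed per line against the Ba/Sq lines (2.63, adjusted p = 0.0160). The Tnfrsf9 ligand gene Tnfsf9 rose as well (1.45, adjusted p = 0.0220), though its change was 0.90 to 1.82 with 1 tumor left out and missed the threshold in 2 of 21 such fits.

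Tnfrsf9 was high in all 3 BURP-16SR tumors, with and without counts of CD3, the signalling part of the T cell receptor. Set against the summed counts of Cd3d, Cd3e and Cd3g, it gave 5.33 counts per CD3 count in C73-M10 (490 and 92) and 2.07 in C74-MNT (348 and 168). P5 had 575 counts of Tnfrsf9 and 0 of CD3, 1 of Cd8a, 0 of Nkg7 and 0 of Gzma. Over the line the ratio was 5.43, or 3.22 without P5, and over each of the other 7 lines it was 0.599 to 1.62. Outside this line, ratios above that of C73-M10 came with very few CD3 counts. These were BURP-19NE C80-M3, at 6.29 (44 and 7 counts), and BURP-17BaSq C165-M30, with 14 and 2 counts. The ratio of C74-MNT was also passed by BURP-18BaSq C148-M3, at 2.25 (72 and 32 counts), and C149-M3, at 3.4 (17 and 5). P5 did hold leukocytes, with 143 counts of Ptprc (CD45) and 294 of Csf1r, a macrophage receptor, against 1792 and 1304 in C73-M10. It also had 43 counts of Foxp3, which marks regulatory T cells, 275 of Trbc1 and 3289 of Trdc, constant regions of T cell receptors, but 0 of Trbc2, so that Trbc1 made up most of its 316 counts over the 14 T cell genes. Trdc had 1475 counts in C73-M10 and 552 in C74-MNT, and at most 19 in any tumor of the other lines. Which cells of P5 the Tnfrsf9 counts came from was not tested.

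**Figure D4:**
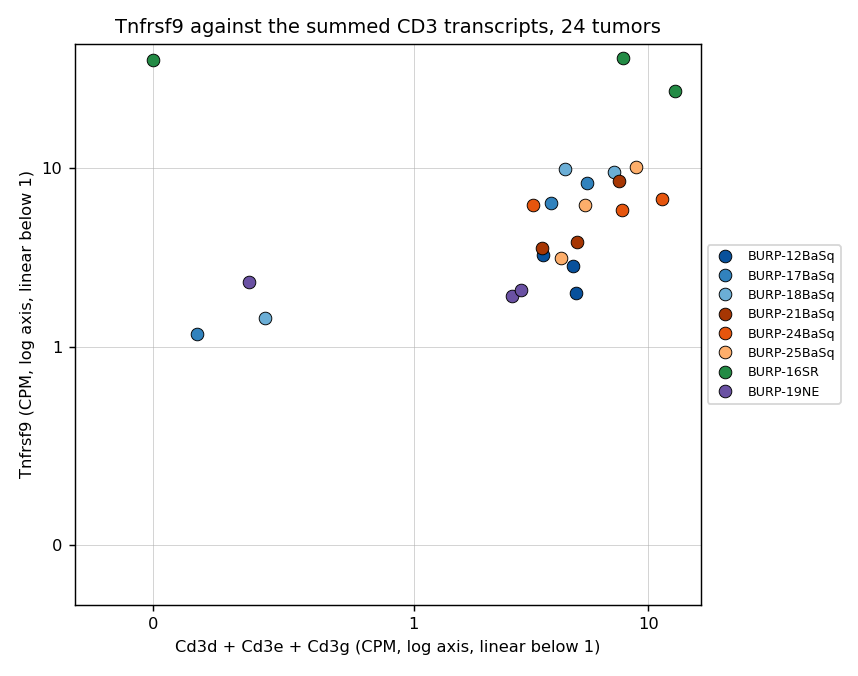
Tnfrsf9 (vertical axis) against the summed level of Cd3d, Cd3e and Cd3g (horizontal axis), in CPM, in the 24 tumors. The BURP-16SR tumors lie at 26.9 to 41.5 CPM of Tnfrsf9, with P5 at 0 on the CD3 axis, and all others lie at or under 10.1 CPM.

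Counted per T cell gene count, the mean level of BURP-16SR differed from that of the Ba/Sq tumors by 1.77 for Tnfrsf9 on the log2 scale (0.78 without P5), and by -0.99 (Klrk1) to -3.84 (Gzma) for the other 9, Cd8a standing at -2.60, Cd8b1 at -2.89, Prf1 at -1.87 and Nkg7 at -1.37. Klrk1, Nkg7, Gzmb and Gzmk thereby turned from above 0 to below it. Without P5 the other 9 lay between -0.46 (Klrk1) and -3.25 (Gzma), with Nkg7 at -0.78. The T cell sum includes Trbc1, which had 189 to 275 counts per BURP-16SR tumor and at most 34 in any Ba/Sq tumor. These values therefore depend on the genes in that sum, and they have no test.

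Other genes of the killer cell lists were read against the 10.5% of all genes called higher in BURP-16SR and the 8.62% called lower. Of 14 T cell genes 2 rose, Trbc1 (4.50) and Cd2 (2.37), and all 14 were above 0 (median 1.07). Of 3 gamma-delta T cell genes tested 1 rose, Trdc (9.05), and the other 2 were below 0 (median -0.03). Of 6 NK cell genes tested 1 rose, Klra4 (4.84), and 5 of the 6 were above 0 (median 0.76). Among 8 genes of helper and regulatory T cells tested, Foxp3 rose by 1.66 and Ikzf2 fell by 2.40. Of the 4 other granzymes tested, Gzme (3.44), Gzmc (3.25) and Gzmd (2.26) rose, genes of 1 cluster of near copies. Gzme and Gzmc lost their call without C74-MNT, and Gzmd (adjusted p = 0.0497) kept it in 4 of 21 fits with 1 tumor left out. Of 14 genes that act with the effectors 1 rose, the chemokine receptor gene Cxcr3 (2.25), with 10 above 0 and 4 below (median 0.28). Of 8 granule genes 1 rose, the proteoglycan gene Srgn (1.78), with 4 above 0 and 4 below (median 0.10). Of 4 granzyme inhibitor genes 1 rose, Serpinb9b (3.99), of the family of granzyme B inhibitors, and all 4 were above 0 (median 2.12). Of 6 ligand genes of NKG2D and 4-1BB tested 2 rose, Tnfsf9 and Ulbp1, and 1 fell, H60c, to 2, 0 and 0 counts. Mean Ulbp1 was 63.9 CPM in BURP-16SR (42.3 to 78.8) and 29.7 in the Ba/Sq tumors (13.6 to 70.5). Cd2 and Cxcr3 missed the threshold without C73-M10, Cd2 and Foxp3 without C74-MNT, and Srgn without C73-M10 or P5. Of 20 interferon gamma response genes 1 passed, Nlrc5 (-1.73, kept in 9 of 21 fits with 1 tumor left out), and the median of the list was -1.04. All 8 B cell genes rose, with summed levels of 389, 11.5 and 3.29 CPM in the 3 tumors and at most 12.5 in the Ba/Sq tumors. The part of B cells or other leukocytes in the Tnfrsf9 level was not tested.

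The female and male Ba/Sq tumors, 9 of each, were compared because bladder cancer differs between the sexes. Prf1 rose in females (log2 fold change 1.67, SE 0.48, adjusted p = 0.0470), the 1 gene of 8 that passed, where 1.22% of 17922 genes were called higher and 1.09% lower. The lowest, median and highest levels were 0.895, 2.40 and 7.07 CPM in females and 0.084, 1.04 and 1.87 CPM in males, so the groups overlapped. This call did not hold well: it ended in 12 of the 18 fits with 1 tumor left out (adjusted p 0.0405 to 0.100), without the filter (0.0732), without any 1 line (0.0564 to 0.171) and without C102-M1 and C102-M30 (0.0690). With counts summed per line, a fit of 3 lines against 3 that called 0 of 21658 genes, it could not be judged. Cd8a (1.15, SE 0.39, adjusted p = 0.0891), Nkg7 (1.02, SE 0.39, 0.126) and Cd8b1 (0.96, SE 0.33, 0.0937) missed the threshold. Klrk1 (0.77), Tnfrsf9 (0.27), Gzmb (-0.13) and Gzma (-1.20) were further from it. The median of the 8 was 0.87, beside -0.04 over all genes. Ifng failed the filter here, with 133 counts in females and 39 in males, and levels of 0.184, 0.868 and 1.27 CPM (lowest, median, highest) against 0, 0.148 and 0.481. Lines are nested in sex, so sex and line cannot be told apart beyond the 3 lines of each sex.

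Interferon gamma response genes were higher in the female tumors. Of the 20 genes 5 rose, beside the 1.22% of all genes, and all 20 were above 0 (median 1.04). Cxcl9 (2.45, adjusted p = 0.0241), Cxcl10 (2.02, 0.0166) and the GTPase gene Igtp (1.46, 0.0176) led, and these 3 kept their call in all 18 fits with 1 tumor left out. With 1 line left out Cxcl9 lost its call in 4 of 6 fits, Igtp in 2 and Cxcl10 in 1. Among 14 T cell genes 1 rose, Cd5 (1.97, adjusted p = 0.0169), with a median of 0.61 over the list. The summed T cell level was 16.2, 24.6 and 41.4 CPM (lowest, median, highest) in females and 3.36, 18.6 and 32.2 in males. Counted per T cell gene count, the difference in mean level between the sexes was 1.01 for Prf1, 1.68 for Ifng, 0.37 for Cd8a, 0.25 for Nkg7 and 0.13 for Klrk1 on the log2 scale, and it was below 0 for Cd8b1 (-0.26), Tnfrsf9 (-0.48), Gzmk (-0.73), Gzmb (-0.91) and Gzma (-1.56), with no test.

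Across tumors, most of the genes went up and down together. Pearson r of log2 CPM had a median of 0.52 over the 45 pairs in the 24 tumors (-0.11 to 0.88) and of 0.56 in the 18 Ba/Sq tumors (-0.35 to 0.94). The tumors share lines, and low genes share the effect of depth, so these values are descriptions. In the Ba/Sq tumors the closest pair was Prf1 and Nkg7 (r = 0.94), followed by Cd8a and Prf1 (0.90) and Cd8a and Nkg7 (0.89). Gzma was the least tied, with a median r of 0.12 with the other 9, and only Gzmb (0.71) and Tnfrsf9 (0.54) exceeded 0.5. Tnfrsf9 had a median r of 0.58 in the Ba/Sq tumors and of 0.29 over the 24 tumors, where BURP-16SR is high in Tnfrsf9 but not in Cd8a (r = -0.03). Against the T cell sum, r in the Ba/Sq tumors was 0.93 for Nkg7, 0.90 for Prf1, 0.88 for Cd8a and 0.79 for Tnfrsf9, but 0.32 for Gzma.

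**Figure D5:**
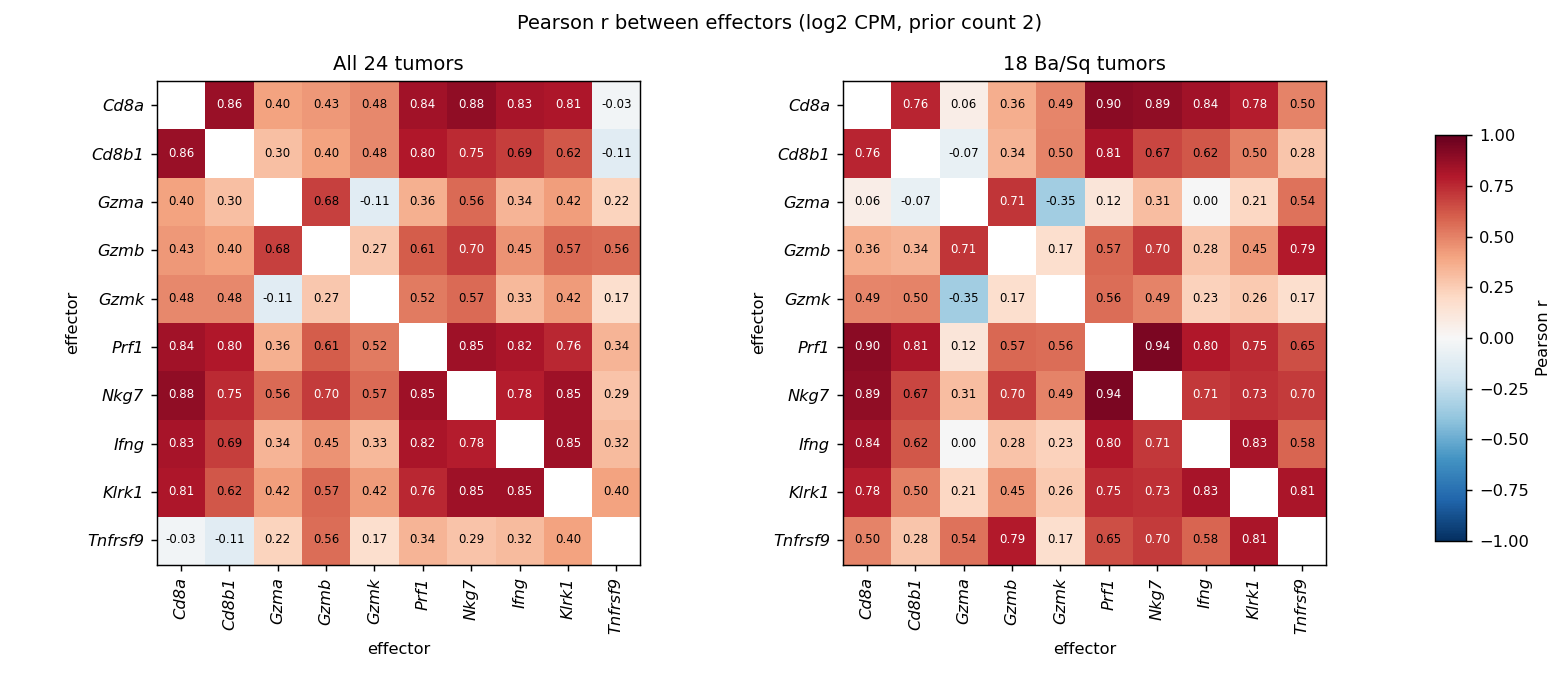
Pearson r of log2 CPM between the 10 genes over the 24 tumors (left) and the 18 Ba/Sq tumors (right), as coloured squares. Over 24 tumors Gzma and Tnfrsf9 form the palest rows, with median r of 0.36 and 0.29. In the Ba/Sq tumors Gzma and Gzmk do, with median r of 0.12 and 0.26.

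Each gene's pattern was compared with all others, and the 3 nearest of 21374 genes by r over the 24 tumors were listed for the 9 genes with enough counts. Nkg7 was nearest to T cell genes, Themis (r = 0.96), Cd3e (0.95) and Il2rb (0.95). Klrk1 was nearest to Ms4a4b, Rinl and Skap1 (0.92 to 0.93) and Prf1 to Klrc1 (0.90), an NKG2 receptor gene. Ifng was nearest to guanylate-binding protein genes, which interferon gamma induces, Gbp8 (0.93), Gbp9 (0.90) and Gbp4 (0.89). Tnfrsf9 was nearest to Fxyd5 (0.96), Gpsm3 (0.93) and the pan-leukocyte gene Cd53 (0.92). Cd8a was nearest to Klri2, Adgrg5 and H2-Ab1 (0.89 to 0.90), and Cd8b1 to Cd96 (0.80), Cxcl10 and Hist1h2ah (both 0.79), the lowest r of these lists. Gzma was nearest to Ptger3 (0.85), Nod1 (0.83) and Camk4 (0.82), and Gzmb to Serpina3f (0.83), Naaa and Tgm2 (both 0.80).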

How the data were processed

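RNA from 24 tumors was sequenced after ribosomal depletion (RNA HyperPrep with RiboErase) on a NovaSeq. The authors aligned the read pairs with STAR 2.6.0a to GRCm38 with GENCODE M16 and deposited estimated counts per gene from RSEM 1.3.1. The submitters' processing notes also name CASAVA 1.8.2. RSEM shares reads among near copies, so the Gzmc, Gzmd and Gzme, Klra, Raet1 and H60 genes are uncertain. Of the deposited values 12.5% were not whole, and all were rounded. Symbols were matched to 99.6% of the 53465 gene identifiers.

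Tumors were grouped into lines from their titles, and subtype and sex of a line come from the study. The 10 genes and all gene lists were chosen with earlier results of these data known. CPM used TMM library sizes of edgeR 4.0.16 (R 4.3.3, limma 3.58.1), and log2 CPM for correlations used a prior count of 2. Each comparison was 1 edgeR quasi-likelihood fit over all genes passing filterByExpr, with Benjamini-Hochberg adjustment over all genes tested, and a gene was called at adjusted p under 0.05 and, between groups, an absolute log2 fold change above 1. SE is the fold change over the square root of F. Named list genes were the 3 called with the largest change in each direction and list, beside fixed marker genes. The ratios of Gzma to Prf1 and of Tnfrsf9 to CD3 were singled out after their values were seen. The scripts were tested on simulated data in which 200 genes were changed 4-fold. Over the comparisons edgeR found 91% to 100% of them, with 0% to 6.19% of its calls false. DESeq2 found 88.5% to 100%, with 0% to 30.5% of its calls false. All genes had the same simulated spread, and the changed genes had higher mean counts than Gzmk and Ifng, so such low genes were not covered. Alternatives were DESeq2 1.42.0, its size factors, no filter, a mean of at least 10 counts, all 24 tumors in 1 fit, counts summed per line, levels per summed count of the T cell list, and tumors or lines left out.

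Libraries held 9295708 to 25370320 counts (median 17693147). Intervals and the floor of 3 counts cover counting error only. Gene lengths came from a later GENCODE release on the same build. Cd8b1 had no promoter window.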

Additional observations from a re-analysis of the deposited data

Results flagged for a closer look

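In the female and in the male Ba/Sq tumors, 9 of each, the gap between the most extreme tumor and its neighbour was set against the whole range for each of the 10 genes. Among these 20 groups of values, 2 had a gap share above the critical value of 0.493. That value flags about 1 in 20 groups by chance only where values are independent and normally distributed. These tumors share lines and many counts are low, so the rate of chance flags here is not known. Gzmk in BURP-24BaSq P2 stood at 0.703 CPM (17 counts), where the next female tumor had 0.306, a gap of 0.565 of the range. Gzma in BURP-18BaSq C148-M3 stood at 9.75 CPM (71 counts), where the next male tumor, P4 of the same line, had 4.70, a gap of 0.522 of the range.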

How the results depend on the processing

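No paired analysis was possible because the replicate numbers were given in accession order and the labels carry none that lines share. DESeq2 called 4 of the genes among 8 lines (2 in the report), 3 for BURP-19NE (1) and 3 between the sexes (1). Over all genes DESeq2 called 18032 of 37283, 6195 of 36501 and 1151 of 35984 in these comparisons. In data simulated for the 8 lines, 30.5% of the DESeq2 calls were false, against 1.09% for edgeR. With all 24 tumors in 1 fit, 2 were called for BURP-19NE and 2 for BURP-16SR against BURP-19NE (1 each in the report), Ifng of BURP-16SR turned to 0.06, Gzmb against BURP-24BaSq to -0.01 (DESeq2 gave -0.03) and Gzmb between the sexes to 0.39. Over all genes the fit of 24 tumors called 6152 of 21383 for BURP-19NE and 5175 of 21383 for BURP-16SR against BURP-19NE. With counts summed per line, 0 were called for BURP-19NE, where 1087 of 25016 genes passed. Between the sexes 0 were called as well, where that fit called 0 of all 21658 genes (1388 at an unadjusted p under 0.05). Between the sexes 0 were called with no filter, without C102-M1 and C102-M30, and without line BURP-17BaSq, BURP-18BaSq, BURP-21BaSq, BURP-24BaSq or BURP-25BaSq; without BURP-18BaSq Gzma became 1.21 and Gzmb 1.3, and without BURP-12BaSq Tnfrsf9 became -0.04. Among the Ba/Sq lines 0 were called without BURP-18BaSq, where 7862 of 20231 genes passed. Leaving out C102-M1 and C102-M30 between groups, BURP-18BaSq (other than between the sexes) or BURP-16SR, and C80-M3 or P5 from levels per T cell count and P5 from the CD3 ratio, was chosen after seeing the data. The cause was not tested in any of these cases.

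With 1 tumor left out, 2 to 4 genes were called among 8 lines, 1 to 4 among Ba/Sq lines, 0 to 3 for BURP-19NE, 1 to 4 for BURP-16SR against BURP-19NE, 1 to 2 against BURP-24BaSq and 0 to 1 between the sexes. These fits tested 18038 to 22257 genes each. Over all genes they called, in the same order, 15717 to 17335, 8354 to 12216, 3527 to 5314, 2845 to 5545, 4070 to 6578 and 287 to 557. In the comparison of BURP-16SR with Ba/Sq, Gzmb ranged over -0.84 to 0.78, Prf1 over -1.40 to 0.14, Nkg7 over -0.34 to 0.99, Ifng over -1.84 to 0.41 and Klrk1 over -0.39 to 1.34. Against BURP-19NE, Cd8a ranged over -1.03 to 0.97. Against BURP-24BaSq, Gzma ranged over -2.28 to 0.04, Gzmb over -1.20 to 0.46, Nkg7 over -1.05 to 0.32 and Klrk1 over -0.26 to 1.5. Between the sexes, Gzmb ranged over -0.31 to 0.55. Against Ba/Sq, the lowest of these values came without C74-MNT and the highest without P5. Depth limits Gzmk and Ifng most, at 80 and 195 counts over 24 tumors.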
